A study of Homo sapiens with 6 samples.

Results

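The p53 targets and regulators described here are 32 protein-coding genes, taken by symbol from a count table of 50883 genes. The RNA came from D283, an established cell line grown from a human medulloblastoma, a malignant tumour of the cerebellum. All 32 symbols were found in the table. D283 cultures were infected with lentiviruses that expressed GFP and a guide RNA, either non-targeting (control, 3 libraries) or directed at OTX2 (OTX2 knockout, 3 libraries), and were collected after 7 days. OTX2 is a homeobox transcription factor that is highly expressed in Group 3 medulloblastoma. Both groups share the cell line, the virus type and the GFP marker, and 1 cell line stands behind all 6 libraries. How many guides were used, and what share of the cells was edited, is not stated in the labels. The comparison asks how RNA of the p53 network differs when OTX2 is targeted.

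p53 is a transcription factor that accumulates after DNA damage and other stresses and switches on genes for cell cycle arrest, DNA repair and cell death. MDM2 and MDM4 bind p53 and hold it in check, and MDM2 is itself a p53 target, which closes a negative feedback loop. Many p53 targets, such as CDKN1A, BTG2 and the GADD45 genes, also respond to other inputs, among them growth factor signals and differentiation.

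Total counts were between 54540645 and 62166870 per library, and CPM values are counts scaled to the library size after a trimmed mean (TMM) correction. On that scale a count of 3 was worth 0.0471 to 0.0563 CPM. Control replicate 1 stood apart in its mitochondrially encoded RNA, which made up 0.764% of its counts, against at most 0.449% in control replicates 2 and 3 and at most 0.601% with the OTX2 guide. The targeted gene, OTX2, was at 1002, 979 and 909 CPM in the control libraries and 765, 824 and 887 CPM in the knockout libraries, a small fall (log2 fold change -0.22, SE 0.06, adjusted p = 0.00646 in edgeR's quasi-likelihood fit). Of 9 markers of Group 3 medulloblastoma, OTX2 among them, all 9 were expressed. At an adjusted p under 0.05 by edgeR, 8 fell in the knockout group, OTX2 included (88.9%, against 18.5% of all tested genes). The remaining 1, MAB21L2, rose (11.1%, against 21.2%). Markers of other cell types were low. The 8 immune markers summed to 1.05 to 1.14 CPM in the controls and 0.663 to 0.691 CPM in the knockout libraries, with CD3E and MS4A1 at 0 counts in all 6. Of 3 tested, CSF1R fell, and all 3 passed the filter on low counts only through the control group. The 6 fibroblast markers summed to 18.8 to 20.3 and 24.6 to 25.3 CPM, with COL3A1 at 0 to 4 counts per library. Of 4 tested, COL1A1 rose, and DCN, with 2 to 4 counts per control library and 28 to 34 per knockout library, passed the filter only through the knockout group and so had to be higher. The 6 endothelial markers summed to 2.55 to 4.00 and 5.56 to 6.59 CPM, with CDH5 at 0 counts in the controls. Of 3 tested, VWF rose, and PECAM1, with 2 to 7 and 11 to 19 counts, also passed only through the knockout group. The part of such cells in the results was not tested. In bulk RNA, fewer cells of a kind and less RNA per cell cannot be told apart.

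The 32 genes split in both directions. Genes with changes above 2-fold were all rises: TP53I11, TP73, GADD45B, BTG2, CDKN1A, SFN and TP53INP1. The largest fall was GADD45A. The regulators MDM2, MDM4 and PPM1D moved by less than 1.5-fold, as did the death receptors and the DNA repair genes. Of 30 genes that passed the filter on low counts, 12 were called higher in the knockout group and 8 lower, and 10 were not called (quasi-likelihood test of edgeR, adjusted p under 0.05 after Benjamini-Hochberg correction over 18420 tested genes). Over all tested genes 39.7% were called, 21.2% higher and 18.5% lower, so a large part of the transcriptome differed. The rises above 2-fold were 7 of the 30 genes, against 6.04% of all tested genes. The median log2 fold change was 0.12 over the 30 genes and 0.0062 over all tested genes. For 16 of the 30 genes every knockout library was above every control, and for 8 every knockout library was below, against 26.2% higher and 23% lower of all tested genes. TNFRSF10C and SPATA18 were too low to test. SFN passed the filter only through the knockout group and so had to differ. It is among the 7 rises above 2-fold and the 16 genes higher in every knockout library, and it enters the median. Without it 11 of 29 tested genes were called higher, and the median log2 fold change was 0.11.

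**Figure D1:**
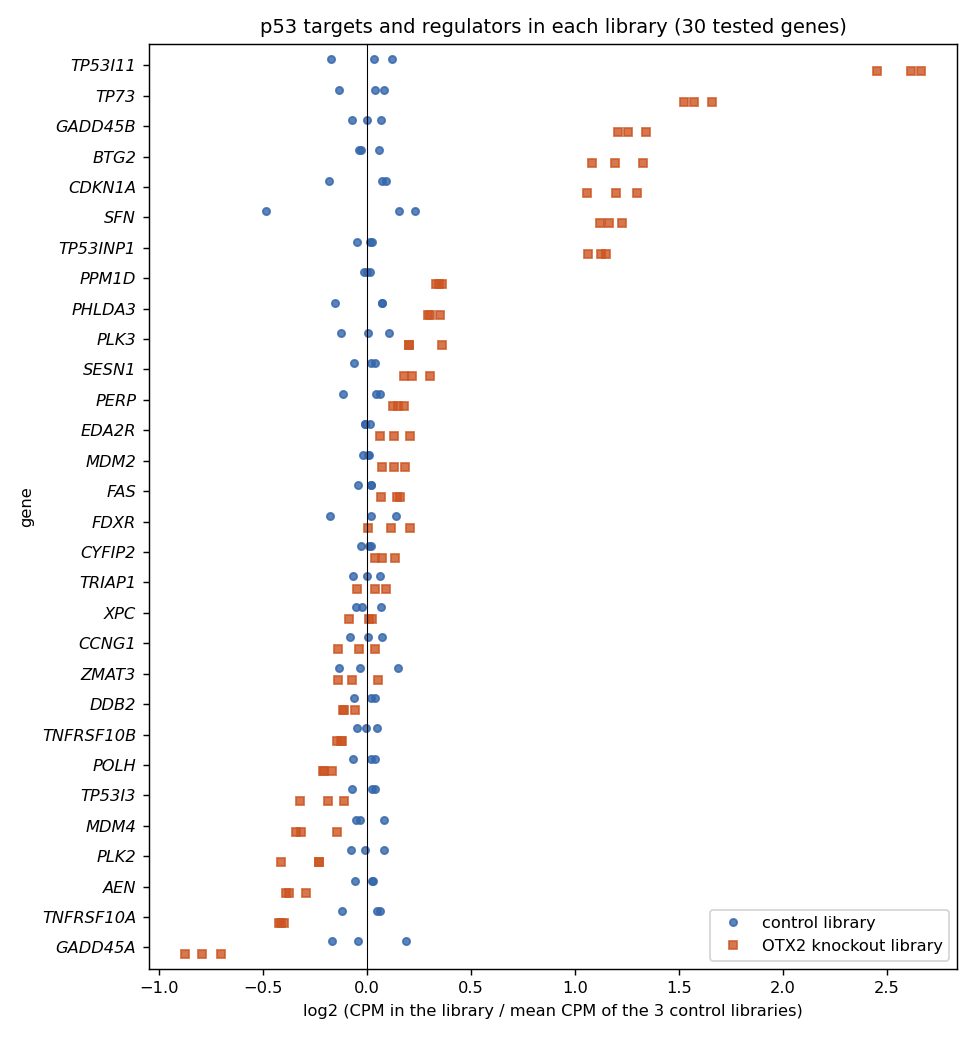
Level of each of the 30 tested genes in each library as log2 of its CPM over the mean CPM of the 3 control libraries, with circles for control and squares for OTX2 knockout libraries, and genes ordered by log2 fold change. The knockout libraries of 7 genes at the top lie more than 1 log2 unit above the control mean, most genes lie within 0.5 of it, and GADD45A lies lowest.

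The split depended in part on scaling. With library totals in place of TMM scaling, 15 of the 30 genes were called higher and 6 lower, against 28.3% and 11% of all tested genes. With DESeq2, 11 were called higher and 8 lower, against 18.5% and 18.1%. When the test asked for more than a 1.5-fold difference (edgeR's glmTreat), 6 of the 30 were called higher and 1 lower, against 5.7% and 0.852% of all tested genes. The 6 were TP53I11, TP73, GADD45B, BTG2, CDKN1A and TP53INP1, and the 1 was GADD45A. These 7 genes were called in the same direction under every alternative run.

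**Figure D2:**
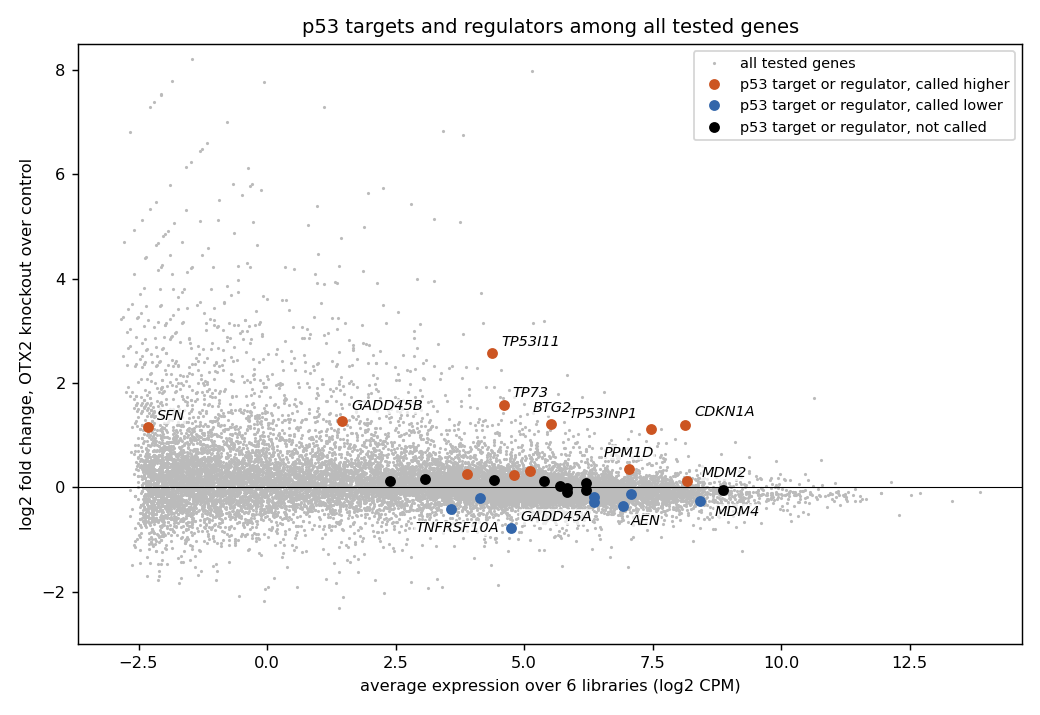
Log2 fold change of OTX2 knockout over control against average expression in log2 CPM for 18420 tested genes (grey) and for the 30 tested p53 targets and regulators (coloured by call). CDKN1A and TP53INP1 stand above the cloud at high expression, while MDM2 and MDM4 lie close to 0.

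Among the negative regulators, MDM2 and PPM1D rose slightly and MDM4 fell slightly. MDM2, the ubiquitin ligase that marks p53 for degradation, was at 275, 276 and 271 CPM in the controls and 300, 288 and 311 CPM in the knockout libraries. The groups did not overlap, but the rise was 1.09-fold (log2 fold change 0.13, SE 0.05, adjusted p = 0.0357 in edgeR's quasi-likelihood fit). That call was lost in 7 of 12 alternatives that changed the scaling, filter, tool or libraries, among them RLE scaling (adjusted p = 0.0549) and leaving out control replicate 2 or 3 or any knockout replicate (adjusted p from 0.0630 to 0.150). MDM4, which binds p53 and blocks its activity as a transcription factor, was at 395, 364 and 359 CPM in the controls and 295, 299 and 338 CPM in the knockout libraries. Its fall of 0.26 on the log2 scale (SE 0.06, adjusted p = 0.00214 by edgeR) was separated by a narrow gap. PPM1D, a phosphatase that removes activating phosphates from p53 and the damage kinases, held 115, 117 and 116 CPM in the controls and 146, 149 and 147 CPM in the knockout libraries. This was a tight 1.27-fold rise (log2 fold change 0.35, SE 0.04, adjusted p = 1.16e-05 by edgeR).

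Within each library, the ratio of MDM4 to MDM2 per kb of exon does not depend on scaling between libraries. The ratio was 1.73, 1.59 and 1.60 in the controls and 1.19, 1.25 and 1.31 in the knockout libraries, so the groups did not overlap. The ratio of CDKN1A to MDM2 was 2.38, 2.83 and 2.92 in the controls and 6.08, 5.90 and 4.97 in the knockout libraries, a 2.09-fold higher mean. An exact two-sided permutation test of 3 against 3 libraries gave p = 0.1 for each of 4 such ratios, which is the smallest it allows, and 0.1 after Benjamini-Hochberg adjustment. The 4 pairs were chosen after the values were seen.

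The cell cycle genes were led by CDKN1A and BTG2. CDKN1A encodes p21, the inhibitor of cyclin-dependent kinases through which p53 arrests the cell cycle, and lies on the plus strand of chromosome 6 (36676460 to 36687339 on GRCh38, GENCODE release 29). Its level was 150, 179 and 181 CPM in the controls and 418, 390 and 355 CPM in the knockout libraries. Every knockout library was far above every control, a 2.28-fold rise (log2 fold change 1.19, SE 0.07, adjusted p = 6.70e-09 in edgeR's quasi-likelihood fit). The lowest control was control replicate 1, the library with more mitochondrial RNA, and without it the log2 fold change was 1.10. BTG2, an antiproliferative protein that binds the CCR4-NOT deadenylase, lies on chromosome 1 (203305491 to 203309602, plus strand). It rose from 28.9, 27.0 and 27.2 CPM to 69.5, 63.4 and 58.7 CPM, a 2.30-fold change (log2 fold change 1.20, SE 0.06, adjusted p = 9.29e-10 by edgeR).

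CDKN1A and BTG2 are both well expressed and both more than 2-fold higher, so the 250 bases before their RefSeq transcript starts on GRCh38.p14 are shown, 5′ to 3′ on the plus strand (chr6:36678464-36678713 and chr1:203305269-203305518). Capitals mark the GC box GGGCGG on either strand, to which SP1-type factors bind, and overlapping boxes are joined.
CDKN1A: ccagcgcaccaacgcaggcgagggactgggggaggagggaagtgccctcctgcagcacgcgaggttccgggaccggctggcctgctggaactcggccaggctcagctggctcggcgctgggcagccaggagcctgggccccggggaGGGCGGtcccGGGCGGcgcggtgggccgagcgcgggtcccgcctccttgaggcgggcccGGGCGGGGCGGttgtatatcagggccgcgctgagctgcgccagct
BTG2: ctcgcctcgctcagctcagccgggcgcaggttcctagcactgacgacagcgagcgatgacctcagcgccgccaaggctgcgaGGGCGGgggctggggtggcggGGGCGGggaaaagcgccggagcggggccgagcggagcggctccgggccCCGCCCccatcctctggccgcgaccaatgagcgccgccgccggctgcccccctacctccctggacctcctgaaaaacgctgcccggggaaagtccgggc
The GC box occurred 4 times before CDKN1A and 3 times before BTG2. Of 35116 RefSeq promoters, 42.6% held at least 1 GC box in the same window, 13.9% held at least 3 and 7.63% at least 4. Neither stretch held a decamer of the p53 consensus without mismatch. Decamers with mismatches were not counted here, so a weaker element may be present in either stretch. The known p53 elements of CDKN1A lie farther upstream, outside this window.

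GADD45A and GADD45B moved apart. Both encode small stress-induced proteins that bind the kinase MAP3K4, and GADD45A is the classic p53 target of the family. GADD45A (chromosome 1, 67685061 to 67688338, plus strand) was at 38.6, 32.9 and 30.2 CPM in the controls and 19.6, 18.5 and 20.9 CPM in the knockout libraries, a fall of 0.79 on the log2 scale (SE 0.08, adjusted p = 1.29e-06 in edgeR's quasi-likelihood fit). GADD45B (chromosome 19, 2476122 to 2478259, plus strand) was low, with 83, 93 and 88 counts in the controls and 254, 225 and 238 in the knockout libraries. At 1.57 ± 0.0761 and 3.80 ± 0.178 CPM (SD, n = 3 per group) its rise was 2.41-fold (log2 fold change 1.27, SE 0.11, adjusted p = 4.06e-07 by edgeR). The third relative, GADD45G, is not among the 32 genes and went up from 3.17 ± 0.395 to 8.57 ± 1.02 CPM (SD, n = 3 per group). Per kb of exon, GADD45A exceeded GADD45B 22.4-fold in the controls and 5.36-fold in the knockout libraries.

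The polo-like kinases PLK2 and PLK3, which respond to stress, also went in opposite directions. PLK2 was at 95.5, 89.5 and 85.4 CPM in the controls and 77.0, 67.8 and 76.9 CPM in the knockout libraries, a fall of 0.29 on the log2 scale (SE 0.06, adjusted p = 0.00114 by edgeR). PLK3 held 14.5, 12.4 and 13.5 CPM against 17.3, 15.5 and 15.5 CPM (log2 fold change 0.26, adjusted p = 0.00996 by edgeR), a call lost without control replicate 2 (adjusted p = 0.0695) or knockout replicate 1 (0.0614). CCNG1, a cyclin that recruits phosphatase 2A to MDM2, was the most abundant of the 32 genes per kb and its groups overlapped, at 476 ± 25.4 and 461 ± 28.5 CPM (SD, n = 3 per group, adjusted p = 0.566 by edgeR). SFN, the epithelial 14-3-3 protein that acts in G2 arrest, was close to silent, with 4, 7 and 6 counts in the controls and 14, 14 and 15 in the knockout libraries. Its call (adjusted p = 0.0216 by edgeR) was lost in 5 of the 12 alternatives, among them DESeq2 (0.114) and leaving out control replicate 1 (0.0904), knockout replicate 2 (0.0580) or knockout replicate 3 (0.0541).

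The death receptors showed no rise that passed the test. FAS, the receptor of FAS ligand, was at 5.02, 4.81 and 5.03 CPM in the controls and 5.53, 5.19 and 5.48 CPM in the knockout libraries (log2 fold change 0.13, SE 0.08, adjusted p = 0.260 by edgeR). TNFRSF10A, a receptor for the death ligand TRAIL, fell from 14.2, 14.3 and 12.6 CPM to 10.4, 10.3 and 10.2 CPM, a decrease with no overlap (log2 fold change -0.41, SE 0.07, adjusted p = 0.000207 by edgeR). TNFRSF10B, the more abundant TRAIL receptor, held 146, 141 and 137 CPM against 130, 128 and 130 CPM (log2 fold change -0.13, adjusted p = 0.0331 by edgeR). The TNFRSF10B call was lost in 6 of the 12 alternatives, among them library totals (adjusted p = 0.393) and leaving out control replicate 1 (0.0629) or 2 (0.0826) or knockout replicate 1 (0.0730) or 2 (0.124). TNFRSF10C, a decoy receptor without a death domain, had 8, 5 and 2 counts in the controls and 5, 7 and 5 in the knockout libraries, so no difference was detectable at this depth. EDA2R, the X-linked receptor for ectodysplasin A2, was at 20.3 ± 0.197 and 22.3 ± 1.14 CPM (SD, n = 3 per group, adjusted p = 0.0651 by edgeR), and was called higher with library totals (0.00798) and under the stricter filter (0.0392). The TNFRSF10 genes are similar in sequence, so their counts are uncertain. Exons of TNFRSF10B overlap those of RHOBTB2, which fell by 0.42 on the log2 scale, and exons of FAS overlap those of ACTA2, which rose (log2 fold change 1.09).

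Among genes of cell death and survival, TP53I11 and TP53INP1 rose most. TP53I11, first identified as a p53-induced gene, lies on the minus strand of chromosome 11 (44885903 to 44951306). It went from 5.22, 6.40 and 6.02 CPM in the controls to 37.2, 36.0 and 32.2 CPM in the knockout libraries, a 5.98-fold rise (log2 fold change 2.58, SE 0.08, adjusted p = 5.67e-12 in edgeR's quasi-likelihood fit). Only 1.29% of tested genes had a larger log2 fold change. Exons of TP53I11 share 74 bases with TSPAN18, which was at 43.5 ± 5.15 CPM in the controls and 54.5 ± 2.48 CPM in the knockout libraries (SD, n = 3 per group), so the count of TP53I11 is uncertain. TP53INP1, a stress protein that promotes p53 phosphorylation and autophagy, was at 109, 114 and 114 CPM in the controls and 245, 250 and 234 CPM in the knockout libraries. The spread was small beside this 2.16-fold rise (log2 fold change 1.11, SE 0.05, adjusted p = 1.15e-10 by edgeR).

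The other tested genes of this class rose or fell by less than 1.5-fold. PHLDA3, a repressor of AKT signalling, rose from 27.7, 32.4 and 32.4 CPM to 39.3, 38.0 and 37.8 CPM (log2 fold change 0.32, SE 0.06, adjusted p = 0.000715 by edgeR). AEN, a nuclease that acts in apoptosis, fell from 131, 139 and 139 CPM to 112, 105 and 105 CPM (log2 fold change -0.35, SE 0.05, adjusted p = 3.35e-05 by edgeR). TP53I3, a quinone oxidoreductase, was at 17.9, 19.4 and 19.2 CPM in the controls and 16.6, 17.5 and 15.1 CPM in the knockout libraries (log2 fold change -0.20, adjusted p = 0.0223 by edgeR). Its call was lost in 4 of the 12 alternatives, namely library totals (adjusted p = 0.159) and leaving out control replicate 2 (0.0857), control replicate 3 (0.0556) or knockout replicate 3 (0.0778), and its exons overlap FAM228B. The desmosomal membrane protein PERP, the RNA-binding ZMAT3, the survival factor TRIAP1 and the actin regulator CYFIP2 were not called, with log2 fold changes of 0.15, -0.05, 0.03 and 0.08. With library totals PERP (adjusted p = 0.0237) and CYFIP2 (0.00961) were called higher, and ZMAT3 turned to 0.03. Exons of CYFIP2 share 62 bases with ADAM19, which rose (log2 fold change 0.26, adjusted p = 0.00785 by edgeR), so the count of CYFIP2 is uncertain. SPATA18, a factor in mitochondrial quality control, had 2 to 8 counts in each library.

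DNA repair genes were close to their control levels. XPC, which recognises damage in nucleotide excision repair, was at 57.3 ± 2.51 and 56.7 ± 2.31 CPM (SD, n = 3 per group, adjusted p = 0.838 by edgeR), and its exons overlap those of LSM3. DDB2, which recognises ultraviolet damage, held 56.4, 60.4 and 59.7 CPM in the controls and 56.5, 54.4 and 54.6 CPM in the knockout libraries, with an overlap (log2 fold change -0.09, adjusted p = 0.130 by edgeR). Without control replicate 1 it was called lower (-0.13, adjusted p = 0.0384). POLH, a polymerase that copies across damaged bases, fell from 83.6, 88.5 and 89.9 CPM to 75.8, 75.4 and 77.8 CPM (log2 fold change -0.19, SE 0.05, adjusted p = 0.00361 by edgeR), and shares 4 exonic bases with GTPBP2. SESN1, a sestrin that restrains mTORC1, rose from 24.4, 26.2 and 25.8 CPM to 31.4, 28.9 and 29.6 CPM (log2 fold change 0.23, SE 0.05, adjusted p = 0.00291 by edgeR). Its relative SESN2 fell by 0.22 on the log2 scale. FDXR, the ferredoxin reductase of mitochondria, was at 40.3 ± 4.41 and 43.5 ± 3.05 CPM (SD, n = 3 per group, adjusted p = 0.242 by edgeR).

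TP73, the p53 relative that acts in neural development and can bind the same DNA elements, rose 3.00-fold. It lies on chromosome 1 (3652520 to 3736201, plus strand). Its level was 11.0, 12.4 and 12.8 CPM in the controls and 35.9, 38.1 and 34.7 CPM in the knockout libraries (log2 fold change 1.59, SE 0.06, adjusted p = 8.31e-11 in edgeR's quasi-likelihood fit). Its relative TP63 had 0 counts in the controls. Exons of TP73 overlap its antisense neighbour TP73-AS1 over 633 bases, so its count is uncertain, and TP73-AS1 was at 43.4 ± 1.36 and 43.6 ± 1.09 CPM (SD, n = 3 per group). TP73 makes full-length and shortened proteins with opposing activity, which counts per gene do not separate.

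Promoter sequence was compared with the p53 response element, a pair of decamers separated by up to 13 bases. Each decamer has a core of C, then A or T, then A or T, then G, preceded by purines and followed by pyrimidines, and it is its own reverse complement, so 1 strand covers both. RefSeq promoters on GRCh38.p14, from 250 bases before to 50 after each start, were found for 26 of the 32 genes, 43 promoters in all. GADD45A, PHLDA3, TNFRSF10A, TNFRSF10B, TNFRSF10C and TP53INP1 had no entry. With both cores intact and up to 2 mismatches elsewhere, 3 of the 43 promoters held an element, against 1.46% of all 35116. They are shown as the closest matches to a full element among the 43. AEN fell, and DDB2 and FAS were not called. A single decamer without mismatch was in 6 of the 43 promoters (against 6.63% of all), 1 each of AEN, DDB2, FAS, FDXR, PLK2 and SESN1. Of these 6 genes SESN1 was called higher, AEN and PLK2 lower, and 3 were not called. Of all tested genes 21.2% were called higher and 18.5% lower, and 6 or 3 genes are too few to set against these shares. Capitals mark the decamers, on the plus strand at chr11:47214975-47215003, chr15:88621302-88621329 and chr10:88991305-88991332.
DDB2: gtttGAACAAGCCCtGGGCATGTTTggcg
AEN: agccGGGCTTGCCCGGGCATGTGGgagc
FAS: tcctGGACAAGCCCTGACAAGCCAagcc
The DDB2 element has 0 mismatches and a spacer of 1 base, and begins 6 bases into the transcript of an alternative start. The AEN element lies from 34 to 15 bases before its start and the FAS element from 122 to 103 bases before an alternative start, with 2 mismatches each. The OTX2-type homeobox motif TAATCC, searched on both strands, was in 1 of the 43 promoters, that of GADD45B, against 6.36% of all. A match is a description of the letters and not of binding.

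On a scale that adjusts for exon length (CPM per kb of merged exons), the 32 genes spanned from CCNG1 at 154 ± 8.19 to SPATA18 at 0.0170 ± 0.00286 in the controls (SD, n = 3). Merged exons include every annotated exon, used in these cells or not. Ranks and ratios between genes on this scale, those above included, are therefore approximate. In the controls CDKN1A ranked second at 55.8 ± 5.70, before TRIAP1 at 35.7 ± 1.56 and MDM4 at 33.9 ± 1.77. CDKN1A was again second in the knockout libraries, at 127 ± 10.4, close below CCNG1 at 149 ± 9.19. TP53INP1 moved from rank 10 to 3, and BTG2 from 16 to 8. GADD45A moved from rank 12 to 17. TP53I11 and TP73, at 0.801 ± 0.0823 and 1.78 ± 0.137 in the controls, reached 4.79 ± 0.357 and 5.35 ± 0.255 in the knockout libraries, so their large folds led to levels still far below CDKN1A.

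**Figure D3:**
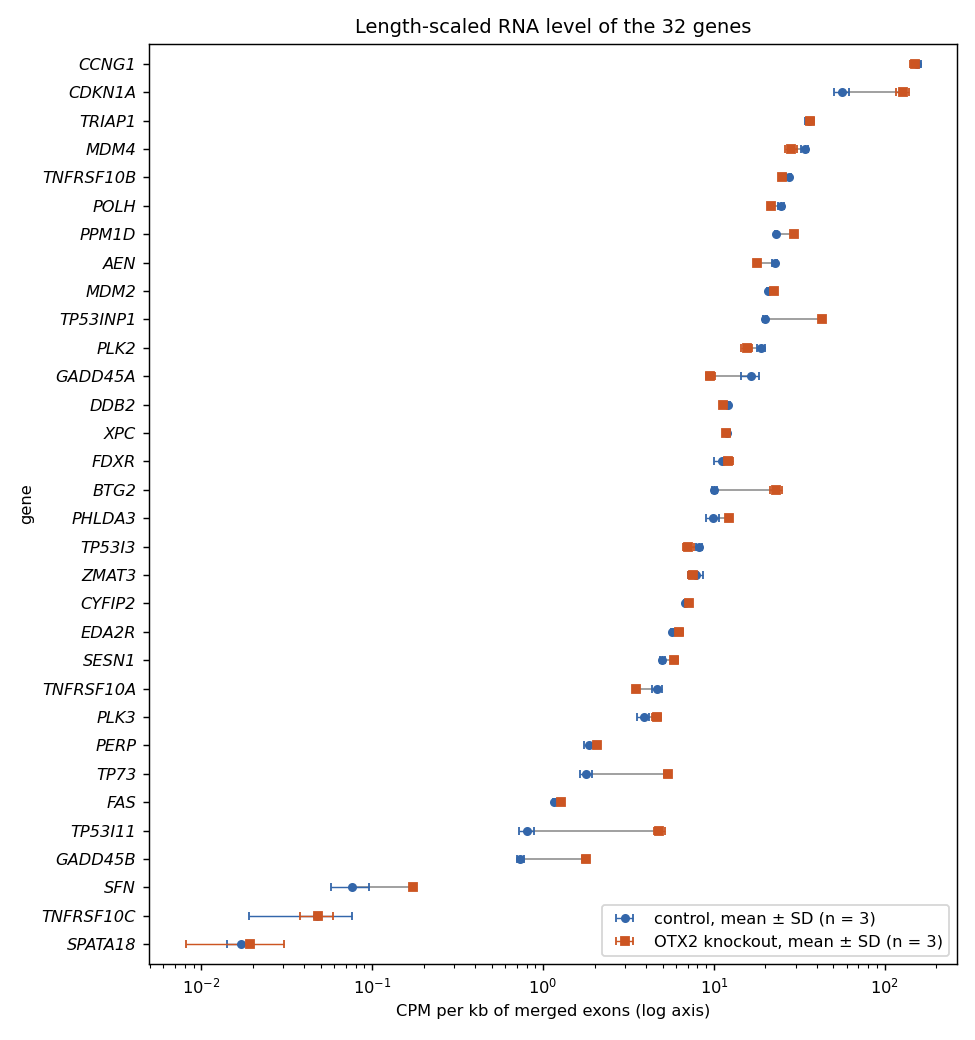
RNA level of the 32 genes in CPM per kb of merged exons on a log axis, as mean ± SD of 3 control (circles) and 3 OTX2 knockout libraries (squares), ordered by the control mean and joined by a line. The long lines belong to CDKN1A, TP53INP1, BTG2, GADD45A, TP73, TP53I11, GADD45B and SFN.

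The wider p53 pathway was read from further lists written from textbook knowledge. The lists were chosen with earlier results of these data known, so their shares are a description and not independent support. Of 49 other p53 targets, 44 were tested, and 19 were called higher (43.2%, against 21.2% of all tested genes) and 8 lower (18.2%, against 18.5%). Their median log2 fold change was 0.12, against 0.0062 over all tested genes. DUSP5, a phosphatase of ERK, rose from 9.09 ± 0.780 to 21.5 ± 0.803 CPM, and SUSD6 from 23.1 ± 0.568 to 36.5 ± 1.65 CPM (SD, n = 3 per group). IGFBP3, a carrier of insulin-like growth factors, fell by 2.31 on the log2 scale. Among mediators of p53-dependent apoptosis, named after their values were seen, APAF1, the core of the apoptosome, rose by 0.25 on the log2 scale (adjusted p = 0.000877 by edgeR). BBC3 and PMAIP1 each fell by 0.23 on the log2 scale, and BAX was at 42.4 ± 3.52 and 44.7 ± 6.13 CPM (adjusted p = 0.498 in edgeR's quasi-likelihood fit). Of 30 genes upstream of p53 or acting with it, 29 were tested, and 4 were called higher (13.8%) and 11 lower (37.9%), with a median of -0.10. PPP1R13B, which directs p53 to death genes, rose from 16.5 ± 0.788 to 30.1 ± 1.03 CPM, while the kinases CHEK1 and PRKDC fell by 0.51 and 0.29 on the log2 scale.

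Of 20 tested cell cycle genes that the p21 and DREAM route can repress, 1 was called higher (5%, against 21.2% of all tested genes) and 6 lower (30%, against 18.5%), with a median of -0.10. CHEK1, ECT2 and CDC20 fell by 0.51, 0.29 and 0.24 on the log2 scale, and CDK1, named after its values were seen, was at 161 ± 8.95 and 161 ± 7.92 CPM (SD, n = 3 per group). The lists share genes and are not separate sets. CHEK1 is also counted among the genes upstream of p53, and PLK1 and PLK4 also among the family relatives below. In the death receptor pathway, 5 of 14 tested genes were called higher (35.7%) and 2 lower (14.3%), with a median of 0.12. TNFSF10 and TNFRSF11B passed the filter only through the knockout group, and without them 3 of 12 were higher and 2 lower (median 0.07). TNFRSF25 rose from 1.24 ± 0.0511 to 7.60 ± 0.756 CPM. TNFSF10, which encodes TRAIL, was near silent at 0.0423 ± 0.0294 and 0.374 ± 0.143 CPM, and FASLG had 0 counts in all 6 libraries.

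Lists that share genes or inputs with the p53 targets were read beside them. Of 19 tested immediate early genes, which respond to growth factor and stress signals as GADD45B and BTG2 also can, 12 were called higher (63.2%, against 21.2% of all tested genes) and 2 lower (10.5%, against 18.5%), with a median of 0.38 and with JUN up from 66.8 ± 1.98 to 113 ± 3.07 CPM (SD, n = 3 per group). FOSL2 and IER5 rose as well, by 0.69 and 0.38 on the log2 scale. EGR2 and ARC passed the filter only through the knockout group, and without them 10 of 17 were higher and 2 lower (median 0.32). The part of this response in the rises of GADD45B and BTG2 was not tested. Of 12 tested epithelial and desmosomal genes, 6 were called higher (50%) and 2 lower (16.7%), with a median of 0.36. KRT5 and KRT19 had at most 3 counts in any control library and passed the filter only through the knockout group, and without them 4 of 10 were higher and 2 lower (median 0.12). The keratins KRT15 and KRT8, beside which SFN and PERP are usually expressed in epithelia, rose by 7.99 and 1.08 on the log2 scale. KRT15 was close to silent in the controls, with 11, 19 and 16 counts. Among desmosomal genes named after their values were seen, DSP and DSG2 fell by 0.54 and 0.29 on the log2 scale, while JUP rose by 0.27. Of 28 tested family relatives, 9 were called higher (32.1%, against 21.2% of all tested genes) and 8 lower (28.6%, against 18.5%), with a median of -0.04. The entry CYFIP1 among the 28 was read from a row named SRA1, which may be a different gene, and was not called. CDKN1C passed the filter only through the knockout group, and without it 8 of 27 were higher and 8 lower. GADD45G and TP53INP2 rose by 1.44 and 0.95 on the log2 scale, the same direction as GADD45B and TP53INP1, and the 14-3-3 gene YWHAH fell by 0.39. Among relatives named after their values were seen, the inhibitor CDKN1B was at 207 ± 9.67 and 205 ± 11.5 CPM (adjusted p = 0.866 in edgeR's quasi-likelihood fit), and BTG1 rose by 0.30 on the log2 scale.

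**Figure D4:**
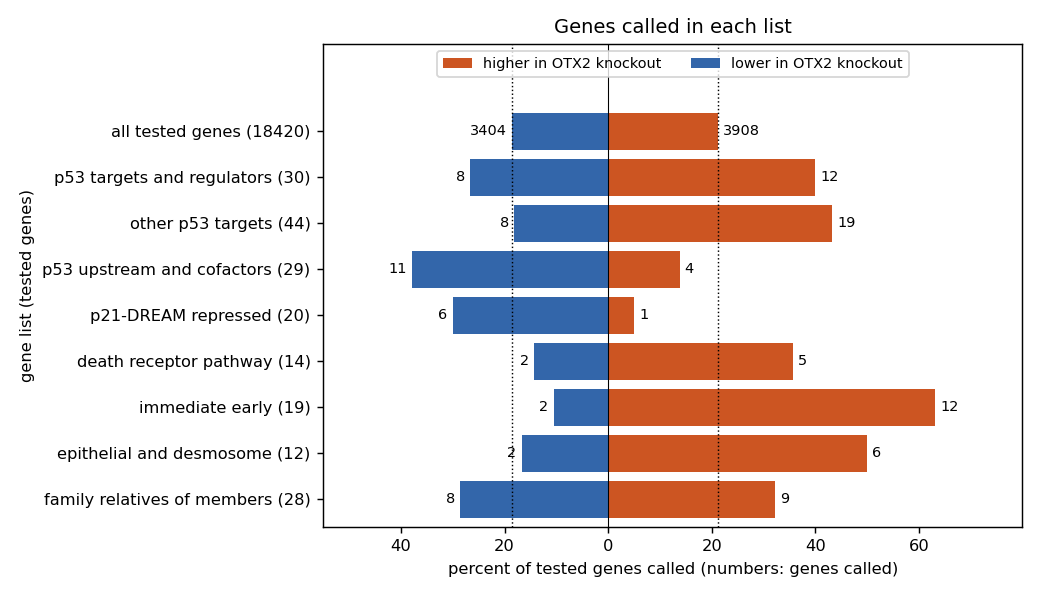
Percent of tested genes called higher (right) or lower (left) in OTX2 knockout libraries for each gene list, with the number of tested genes in brackets, the number called beside each bar and dotted lines at the values for all 18420 tested genes. The p53 targets and regulators show 12 higher and 8 lower, the other p53 targets 19 and 8, and the upstream genes and cofactors 4 and 11.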

How the data were processed

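Total RNA was sequenced from 6 D283 cultures, 3 control and 3 OTX2 knockout, which the labels describe as triplicate infections of D283. With 1 cell line, p-values reflect the spread among these cultures. The authors deposited unnormalized counts per gene symbol. STAR and hg38 are named per the submitters' processing notes, while the counting program, annotation, strand setting and any filter are not stated in the labels. Columns were assigned by title, and 0 other columns were present. Counts were fitted with edgeR 4.0.16 in R 4.3.3 (filterByExpr, TMM scaling, quasi-likelihood F test), with Benjamini-Hochberg adjustment over 18420 tested genes and a threshold of 0.05. CPM uses TMM-scaled library sizes, fold is a ratio of mean CPM, and SE is that of the fitted log2 fold change. The limit set by 3 counts covers counting error alone, since reads carry no molecular identifiers. Gene positions and merged exon lengths are from GENCODE release 29 on GRCh38, and promoters from RefSeq on GRCh38.p14. A count is called uncertain where exons overlap those of a gene holding over 10% of its count, and overlapping genes not matched by symbol were not assessed. The rule for named genes took all 32 genes, OTX2 and up to 3 genes per list with the smallest adjusted p, and others are marked in the text, named as relatives or, where they passed the filter through 1 group, named after their values were seen. Some genes that the rule takes are not reported here. The 32 genes and the lists were chosen with earlier results of these data known. Alternatives were RLE scaling, library totals, no filter, a filter of at least 1 CPM in 3 libraries, DESeq2 1.42.0, limma-voom (limma 3.58.1), glmTreat against 1.5-fold, a threshold of 0.01 and leaving out each library. The script was tested on simulated data.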

Additional observations from a re-analysis of the deposited data

How the results depend on the processing

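No gene among the 30 changed direction between a fit that called it and any other. Of 20 called genes, 15 kept their call in all 12 alternatives other than glmTreat and the threshold of 0.01, and 5 lost it in at least 1 (PLK3 in 2, TP53I3 in 4, SFN in 5, TNFRSF10B in 6 and MDM2 in 7, where SFN could be fitted in 11). The number of the 30 genes called higher was between 10 and 11 when 1 library was left out, and between 6 and 8 were called lower. For the other p53 targets these ranges were 16 to 18 higher and 6 to 10 lower, and for all tested genes 3267 to 3861 higher and 2630 to 3653 lower. Against a 1.5-fold change (glmTreat), 6 of the 30 genes were higher and 1 lower, 3 of the other p53 targets were higher and 2 lower, and 1050 of all tested genes were higher and 157 lower, because this null asks for a larger change. With library totals alone 2034 of all tested genes were lower, against 3404 with TMM scaling, and log2 fold changes shifted by a median of 0.0785. Of the genes that were not called, 4 changed the sign of their log2 fold change in some fits, none with a call. CCNG1, ZMAT3 and XPC did so with library totals, TRIAP1 and ZMAT3 without control replicate 1, XPC without control replicate 2 or knockout replicate 2, and CCNG1 and TRIAP1 without knockout replicate 1. No paired analysis was possible because the labels number the libraries from 1 to 6 across groups and the groups share no number. Depth limited TNFRSF10C and SPATA18, with at most 8 counts in a library, and SFN, with at most 15.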
